A study of Homo sapiens with 21 samples.

Results

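In a human kidney tubule line, 8 genes in a set of 10 that encode acute phase, complement and epithelial defence proteins had less mRNA under cyclosporine A than under vehicle. Among all tested genes, 33.5% were lower and 33.3% higher at an edgeR adjusted p under 0.05. The set was *SAA1*, *SAA2*, *LRG1*, *SERPINA1*, *CP*, *C3*, *CFB*, *C1R*, *DEFB1* and *LCN2*, 10 of the 23368 features of the mRNA count table and 10 of the 12855 with enough counts to be tested. The genes were chosen by name from their measured change between cyclosporine A and vehicle in these same libraries. Their mRNA values and calls are therefore given as a description, and no call on them counts as a test. All 10 passed the filter on low counts, which asks for 2.2 CPM in 4 libraries, but *SAA1*, *SAA2*, *LRG1* and *DEFB1* reached it in the vehicle group only.

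The cells were HK-2, an immortalised line of human proximal tubule epithelium, and no other line was used. Cyclosporine A, which binds cyclophilins and thereby inhibits the phosphatase calcineurin, was given at 5 µg/mL and the vehicle was 0.1% ethanol. Polyadenylated RNA was sequenced after 48 h in 4 vehicle and 4 cyclosporine A libraries, and small RNA in another 4 and 4. RNA bound to the microRNA effector AGO2 was recovered by PAR-CLIP after 24 h of either treatment, with 2 libraries in each, from cells that had also taken up 100 µM 4-thiouridine and were crosslinked at 365 nm. A further PAR-CLIP sample used an antibody to all Argonaute proteins, and its treatment is not stated in the labels. Whether the libraries came from separate cultures is not stated either, so every p-value below measures the spread between libraries, which may be technical.

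Acute phase proteins are plasma proteins whose synthesis changes in infection and injury, mainly in the liver and also in epithelia. Interleukin-6 family cytokines act through the receptor gp130 and the transcription factor STAT3, and interleukin-1 and tumour necrosis factor act through NF-kB and C/EBP factors, to raise many of them. Complement is a cascade of plasma proteases that marks and lyses microbes, and kidney tubule cells make several of its components. Defensins and lipocalin 2 act directly at epithelial surfaces, the former by damaging microbial membranes and the latter by withholding iron.

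Total counts per mRNA library ran from 3965431 to 7041604, and levels below are counts scaled to library size (CPM) after TMM normalization, which set a gene against itself across libraries and not against other genes. In all, 7444 of 12855 tested genes (57.9%) had vehicle and cyclosporine A libraries that did not overlap, so a lack of overlap was common in these data. Of 14 proximal tubule markers, 7 averaged under 1 CPM (*LRP2*, *CUBN*, *ANPEP*, *ALPL*, *AQP1*, *SLC34A1* and *SLC22A6*), while the summed level of the list was 1450 to 1490 CPM in vehicle and 1440 to 1520 CPM in cyclosporine A. The cells therefore carried the tubule label with several of its defining transcripts near 0. Most of that sum was *PAX8*, and its members shifted both ways. The mean of *PAX8* rose from 833 to 954 CPM and that of *MME* from 60.3 to 201 CPM. *GGT1* fell from 152 to 99.1 CPM and *PDZK1* from 56.5 to 14.1 CPM, while *DPP4* and *SLC5A2* did not pass. Of 14 hepatocyte markers, 11 averaged under 1 CPM, with *APOA1*, *APOB*, *APOH*, *TTR* and *FGA* at 0 in every library and a summed level of 5.65 to 10.2 CPM in vehicle and 2.99 to 6.9 CPM in cyclosporine A. Of 12 leukocyte markers, 8 including *PTPRC* were at 0 and 11 averaged under 1 CPM, so that the sum of 130 to 163 CPM in vehicle and 190 to 205 CPM in cyclosporine A was almost wholly *CD68*. The 8 endothelial and stromal markers summed to 359 to 403 CPM in vehicle and 108 to 127 CPM in cyclosporine A, with *PECAM1* and *KDR* at 0. That sum was almost wholly *LUM*, *DCN* and *COL1A1*. Their means fell from 264 to 63.1 CPM, from 96.1 to 48.6 CPM and from 15.6 to 5.36 CPM. The 6 epithelial markers summed to 735 to 804 CPM in vehicle and 860 to 963 CPM in cyclosporine A. Within that sum *KRT8*, *KRT18* and *KRT19* rose, while *EPCAM* fell from a mean of 140 to 108 CPM and *CDH1*, the E-cadherin gene, from 8.71 to 1.57 CPM, and *KRT7* did not pass. The part of these marker shifts in the results below was not tested. In bulk RNA, fewer cells making a transcript and less transcript per cell cannot be told apart.

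Of the 10 genes, 8 were called lower under cyclosporine A at an edgeR adjusted p under 0.05, against a background of 33.5% of all tested genes called lower, and 0 were called higher, against 33.3%. The same 8 had groups that did not overlap. Since the genes were picked on this contrast, nothing is read from these counts. The median log2 fold change of the 10 was -1.75, and that of all tested genes was 0.00. The 8 lower genes ranged from -6.80 for *DEFB1* to -0.69 for *C3*, and *CP* and *LCN2* stood apart at 0.21 and 0.17.

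**Figure D1:**
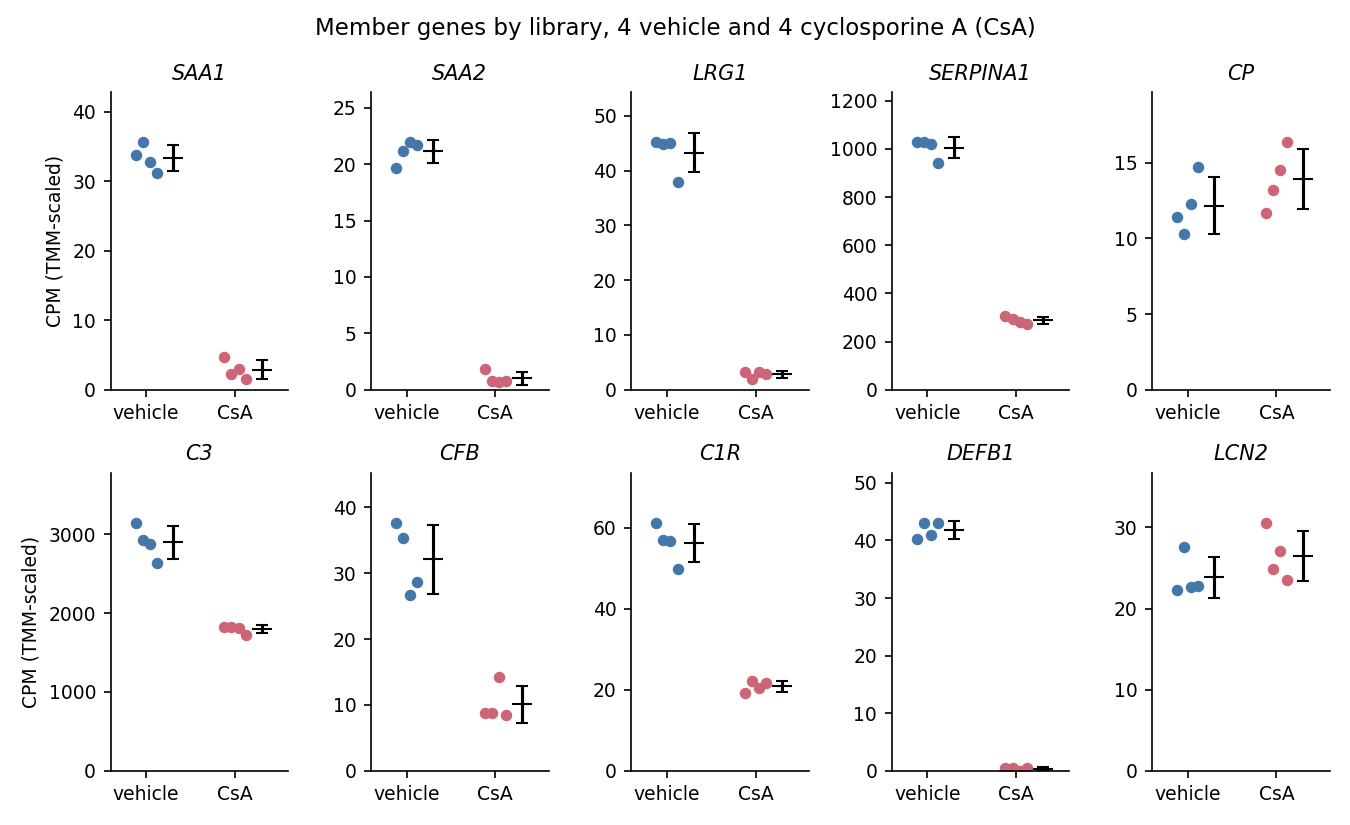
Level of each of the 10 genes in CPM after TMM scaling (vertical axes, each from 0) in the 4 vehicle and 4 cyclosporine A libraries. Points are libraries and the bars beside them are the mean and SD. The groups separate for 8 genes and overlap for *CP* and *LCN2*, and the cyclosporine A libraries of *DEFB1* lie between 0 and 0.511 CPM.

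Serum amyloid A, encoded by *SAA1* and *SAA2*, is an apolipoprotein of acute phase HDL and attracts leukocytes. *SAA1* stood at 33.8, 35.7, 32.8 and 31.2 CPM in the vehicle libraries and at 4.73, 2.2, 2.99 and 1.53 CPM under cyclosporine A. *SAA2* stood at 19.7, 21.2, 22 and 21.7 CPM and at 1.85, 0.733, 0.69 and 0.767 CPM. For both genes every treated library lay far below every vehicle library, and cyclosporine A replicate 1 was the highest of the treated ones. The log2 fold change was -3.49 ± 0.17 (SE) for *SAA1* and -4.30 ± 0.22 for *SAA2*, and without cyclosporine A replicate 1 the *SAA2* value was -4.80. Of the tested genes, 19 had a lower fold change than *SAA1* and 5 a lower one than *SAA2*, a rank that only describes genes chosen on this change.

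The near-identical coding sequences of *SAA1* and *SAA2* let reads be assigned to either copy, and the counting rule for shared reads is not given in the sources used here, which leaves the split between them uncertain. Their sum, which does not depend on that split except for reads dropped as ambiguous, was 54.5 CPM in vehicle and 4.01 CPM in cyclosporine A over the pooled counts of each group, with treated libraries at 6.58, 2.93, 3.68 and 2.3 CPM. *SAA2* took 38.5% of the 1179 summed counts in vehicle (95% Clopper-Pearson interval 35.7 to 41.4) and 26.1% of the 69 counts in cyclosporine A (16.3 to 38.1). Single treated libraries held 9 to 32 counts of the pair, and their *SAA2* share ran from 18.8% to 33.3%, below the vehicle range of 36.9% to 41.0%. The 95% interval of each treated library covered that whole vehicle range, for example 13.7 to 46.7 in replicate 1 and 4.05 to 45.6 in replicate 3. These intervals cover counting error only. The related gene *SAA4* had 5, 6, 3 and 1 counts in vehicle and 0, 0, 1 and 0 in cyclosporine A, too few to be tested.

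*LRG1* encodes leucine-rich alpha-2-glycoprotein, a secreted protein that modifies TGF-beta signalling through endoglin. It measured 45.3, 44.9, 45.1 and 37.9 CPM in vehicle and 3.29, 1.95, 3.22 and 2.81 CPM in cyclosporine A, a log2 fold change of -3.92 ± 0.15. Vehicle replicate 4 was the low library of its group, and the 4 treated libraries together held 6.52% of the vehicle level.

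*SERPINA1* encodes alpha-1-antitrypsin, the plasma inhibitor of neutrophil elastase. Its 4 vehicle libraries lay at 1030, 1030, 1020 and 942 CPM and its treated libraries at 306, 292, 282 and 271 CPM. This gave a log2 fold change of -1.81 ± 0.06, from tight groups (coefficient of variation 4.36% and 5.29%) that were far apart. *CP* encodes ceruloplasmin, the copper-carrying ferroxidase of plasma. It measured 11.4, 10.3, 12.3 and 14.7 CPM in vehicle and 11.7, 13.2, 14.5 and 16.4 CPM in cyclosporine A. The groups overlapped, the fold change of 0.21 ± 0.14 was not called, and the counting interval of the vehicle-to-treated ratio, 0.723 to 1.04, bounds only the counting error.

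**Figure D2:**
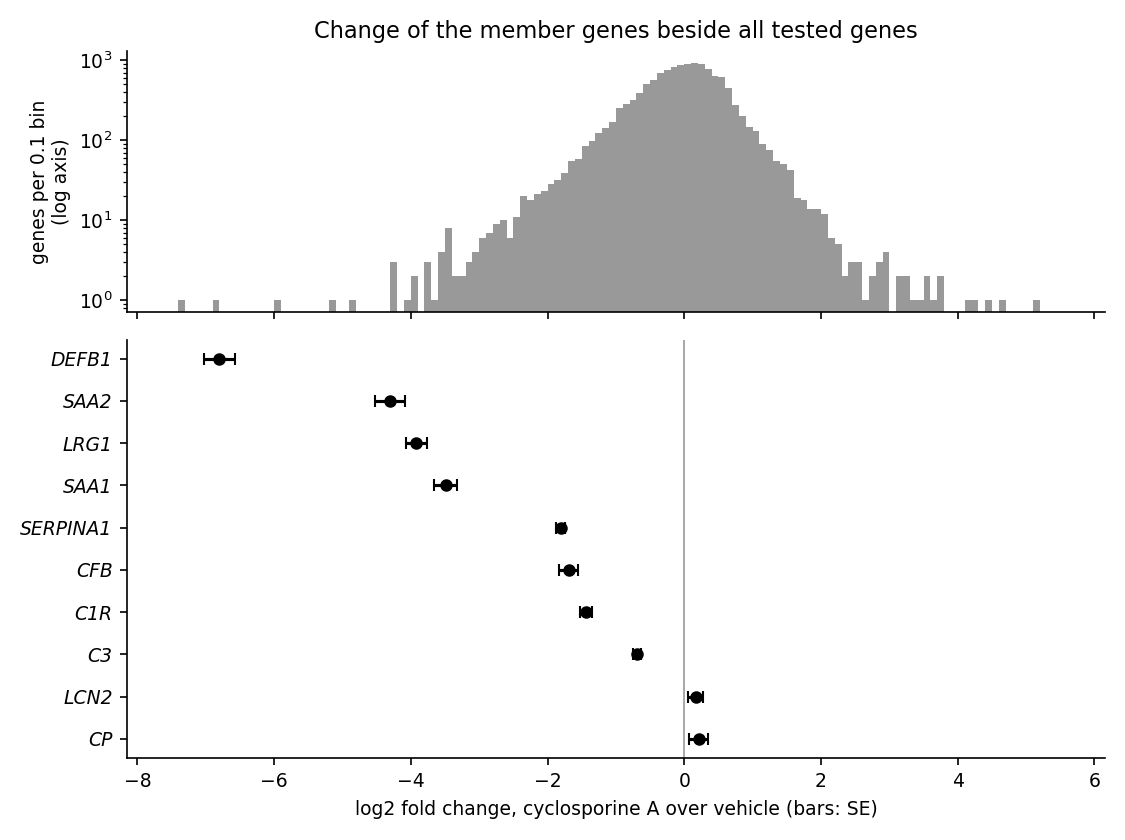
The upper panel is a histogram of log2 fold changes (cyclosporine A over vehicle) of the 12855 tested genes, with a logarithmic count axis. The lower panel gives the 10 genes with their standard errors on the same horizontal axis: *DEFB1*, *SAA2*, *LRG1* and *SAA1* lie in the far left tail, *SERPINA1*, *CFB*, *C1R* and *C3* between -1.81 and -0.69, and *LCN2* and *CP* just right of 0.

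Of the complement components, *C3* encodes the protein on which all activation routes meet, *CFB* the protease of the alternative pathway and *C1R* a protease of the classical pathway. *C3* measured 3150, 2930, 2880 and 2640 CPM in vehicle and 1820, 1830, 1810 and 1720 CPM in cyclosporine A. It was an abundant transcript, 0.273% to 0.315% of all counts in vehicle and at most 0.179% in a treated library, and the log2 fold change was -0.69 ± 0.06. Every treated library was below every vehicle library, although 1868 tested genes had a lower fold change.

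*CFB* measured 37.7, 35.3, 26.7 and 28.7 CPM in vehicle and 8.84, 8.79, 14.3 and 8.44 CPM in cyclosporine A, a log2 fold change of -1.69 ± 0.14. Cyclosporine A replicate 3 stood above the other 3 treated libraries and still below every vehicle library. *C1R* measured 61.3, 57.1, 56.7 and 49.9 CPM and 19.1, 22.2, 20.5 and 21.7 CPM, with the groups apart and a log2 fold change of -1.44 ± 0.09.

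*DEFB1* encodes beta-defensin 1, an antimicrobial peptide that kidney tubule and other epithelia make without induction. It measured 40.2, 43.1, 40.9 and 43.1 CPM in vehicle. The 4 cyclosporine A libraries held 2, 2, 0 and 2 counts, or 0.411, 0.489, 0 and 0.511 CPM, and the library at 0 allows a level of up to 0.69 CPM (3 counts). Over summed counts, 901 against 6, the vehicle level was 119-fold the treated level, with a 95% counting interval of 54.7 to 326. The fitted log2 fold change was -6.80 ± 0.23, and 1 tested gene had a lower one.

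*LCN2* encodes lipocalin 2, also known as NGAL, which binds bacterial siderophores and is used as a marker of kidney injury. It measured 22.3, 27.6, 22.7 and 22.8 CPM in vehicle and 30.6, 24.9, 27.1 and 23.5 CPM in cyclosporine A. The groups overlapped, and the fold change of 0.17 ± 0.11 was not called.

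Vehicle replicate 4 was the lowest vehicle library for 5 of the 10 genes and cyclosporine A replicate 4 the lowest treated library for 5, while vehicle replicate 1 and cyclosporine A replicate 1 were each the highest of their group for 5. Replicate 1 had the largest total count of each group and replicate 4 the smallest, and the part of depth in this order was not tested. In the authors' deposited table of log2 fold changes, *DEFB1* stood at -5.47, *SAA2* at -3.79, *LRG1* at -3.69, *SAA1* at -3.28 and *SERPINA1* at -1.79, each nearer to 0 than in the present fit. The authors' deposited table gave 0.21 for *CP* and 0.17 for *LCN2*.

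The other genes of these pathways were taken from 11 lists that leave out the 10 genes above. In the 303 listed genes, 157 had enough counts to be tested: 69 were lower (43.9%, against 33.5% of all tested genes), 48 were higher (30.6%, against 33.3%) and 40 did not pass, with a median log2 fold change of -0.15 against 0.00. The lists and the 10 genes were compared on the same libraries, so neither is independent of the other. Of the tested list genes, 14 reached the count filter in the vehicle group only and 2 in the cyclosporine A group only, a way of passing that favours a difference, and those named below are marked.

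**Figure D3:**
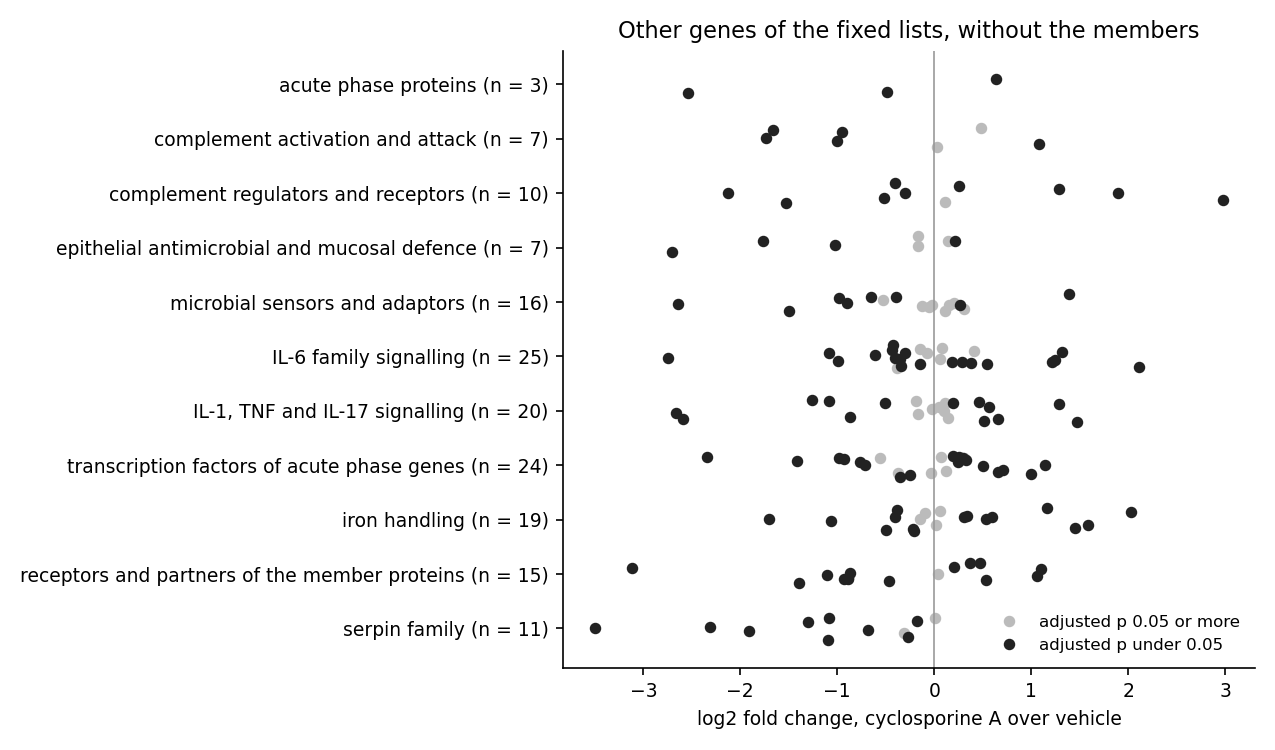
Log2 fold change (cyclosporine A over vehicle, horizontal axis) of each tested gene of the 11 lists, the 10 genes left out. Each point is a gene, black where the edgeR adjusted p was under 0.05 and grey where it was not. The serpins hold no black point right of 0, and the complement regulators spread from -2.13 to 2.98.

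Only 3 of the 32 listed acute phase proteins could be tested, and 11 were at 0 in every library. *AGT*, which encodes angiotensinogen, fell from 17.7 ± 3.53 to 3.07 ± 0.157 CPM (SD, n = 4; log2 fold change -2.54 ± 0.19, edgeR adjusted p = 9.12e-18). *TIMP1*, an inhibitor of matrix metalloproteinases, fell by 0.49 on the log2 scale, and the long pentraxin *PTX3* rose by 0.64. *SERPINA3*, the antichymotrypsin gene, had 0, 3, 0 and 1 counts in vehicle and 1, 0, 0 and 0 in cyclosporine A. Most listed acute phase transcripts of liver were therefore not measurable at this depth.

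Among complement activation genes, 4 of 7 with enough counts fell, 1 rose and the other 2 did not pass, with a median log2 fold change of -0.95. *C1S*, whose product is cleaved by C1r and which lies in the same complex, measured 34.2, 33.1, 32.6 and 30.3 CPM in vehicle and 14.6, 15.6, 21.6 and 15.9 CPM in cyclosporine A (-0.95 ± 0.11, edgeR adjusted p = 5.69e-11). Its groups did not overlap, and cyclosporine A replicate 3 was the highest treated library. The *C1R*-like gene *C1RL* fell from 81.1 ± 6.79 to 24.2 ± 1.79 CPM (-1.74 ± 0.09), the scavenger receptor collectin *COLEC12* fell from 41.0 ± 3.4 to 13.0 ± 1.82 CPM (-1.66 ± 0.11), and *MASP2*, a lectin pathway protease, fell by 1.00. *COLEC10*, a collectin that reached the filter in the cyclosporine A group only, stood 1.08 higher on the log2 scale, and the count of genes called higher was 2 without cyclosporine A replicate 2 and also without cyclosporine A replicate 4. *C5* stood at 8.24 CPM in both groups (0.03 ± 0.17, edgeR adjusted p = 0.904). *C2*, the classical pathway neighbour of *CFB*, had 1 to 8 counts a library and was not tested.

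Complement regulators and receptors went both ways, 5 falling and 4 rising of 10 tested. *CLU*, whose product clusterin blocks the terminal complex, fell from 1140 ± 85.9 to 261 ± 7.78 CPM (-2.13 ± 0.06). The membrane regulator *CD55*, which speeds the decay of the C3 convertase, measured 45.1, 39.6, 47.2 and 49.0 CPM in vehicle and rose to 105, 121, 111 and 103 CPM (1.29 ± 0.07, edgeR adjusted p = 2.51e-22). Thrombomodulin, encoded by *THBD*, rose from 31.4 ± 4.08 to 252 ± 22.3 CPM (2.98 ± 0.08), and the C5a receptor *C5AR1* rose from 13.6 ± 1.51 to 50.8 ± 1.55 CPM (1.89 ± 0.10). The other membrane regulators *CD46* and *CD59* fell by 0.40 and 0.30, and *C1QBP* did not pass (0.11 ± 0.07). Factor I, from *CFI*, had 0 to 6 counts a library.

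Of 42 listed genes for antimicrobial and mucosal defence, 7 were tested and 24 were at 0 in every library, so *DEFB1* and *LCN2* had few companions with counts. *WFDC2*, encoding an epithelial protein of the whey acidic protein family, measured 75.2, 76.4, 81.5 and 65.9 CPM in vehicle and 11.7, 9.53, 12.2 and 12.5 CPM in cyclosporine A (-2.70 ± 0.10, edgeR adjusted p = 9.03e-31). The membrane mucin *MUC1* fell from 26.6 ± 3.12 to 7.75 ± 2.38 CPM (-1.77 ± 0.14), and the chemokine *CCL20*, itself antimicrobial, fell from 16.1 ± 2.77 to 7.87 ± 2.45 CPM (-1.02 ± 0.16). Galectin 3, from *LGALS3*, rose by 0.21, a call that upper-quartile scaling removed. *RNASE4*, *ANG* and *DUOX1* did not pass, and *SLPI* and *PIGR* had at most 3 counts a library.

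Of 16 tested microbial sensors and adaptors, 6 fell, 2 rose and 8 did not pass. *CD14*, the lipopolysaccharide co-receptor, averaged 7.5 ± 1.04 CPM in vehicle and 1.13 ± 1.06 CPM in cyclosporine A, with 0 in replicate 4, and reached the filter in the vehicle group only. *TLR3*, called lower, likewise reached the filter in the vehicle group only. *MYD88*, *NOD1*, *TLR2* and *IRAK4* fell, with log2 fold changes of -0.98 for *MYD88*, -0.90 for *NOD1*, -0.65 for *TLR2* and -0.39 for *IRAK4*. The kinase *IRAK1* rose from 181 ± 7.6 to 475 ± 32.4 CPM (1.39 ± 0.06). *TRAF6* rose by 0.26 with an edgeR adjusted p of 0.0440. The count of sensors that rose was 1 with DESeq2, limma voom, upper-quartile scaling or a replicate block. That count was also 1 without vehicle replicate 1 or vehicle replicate 2.

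In the interleukin-6 family, 11 of 25 tested genes fell, 8 rose and 6 did not pass. *IL6* itself measured 49.5, 49.0, 48.7 and 38.4 CPM in vehicle and 22.8, 21.3, 29.4 and 20.2 CPM in cyclosporine A (-0.99 ± 0.10, edgeR adjusted p = 1.09e-12), with cyclosporine A replicate 3 the highest treated library. Its receptor *IL6R* measured 78.2, 62.9, 62.2 and 58.7 CPM and rose to 168, 163, 156 and 173 CPM (1.32 ± 0.07, edgeR adjusted p = 6.76e-24). The oncostatin M receptor *OSMR* fell from 443 ± 33.2 to 349 ± 11.8 CPM (-0.34 ± 0.06). For *IL6ST*, which encodes the shared receptor gp130, the fold change was -0.15 ± 0.06 with an edgeR adjusted p of 0.0307. That call was lost with DESeq2 (adjusted p = 0.0751), without a filter on low counts, and when vehicle replicate 1 or 2 or cyclosporine A replicate 2 or 4 was left out, the adjusted p running from 0.00102 to 0.142 over all settings.

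*STAT3*, the main transcription factor of this pathway, measured 137, 138, 143 and 143 CPM in vehicle and 143, 150, 144 and 156 CPM under treatment, and it did not pass the threshold (0.08 ± 0.06, edgeR adjusted p = 0.239). *SOCS3*, a feedback inhibitor of this pathway, measured 63.7, 64.2, 59.9 and 60.5 CPM and fell to 40.7, 40.3, 40.7 and 41.7 CPM (-0.61 ± 0.08, edgeR adjusted p = 1.02e-09). The kinase genes *PIM1* and *PIM3* rose by 2.11 and 1.21, the inhibitor *SOCS1*, which reached the filter in the cyclosporine A group only, stood 1.24 higher, and *JAK1* did not pass (0.06 ± 0.06). 

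In the interleukin-1, tumour necrosis factor and interleukin-17 list, 7 of 20 tested genes rose, 6 fell and 7 did not pass, with a median log2 fold change of 0.07. The interleukin-1 receptor *IL1R1* fell from 34.1 ± 3.99 to 14.5 ± 2.23 CPM (-1.26 ± 0.12), and the decoy receptor *IL1R2*, which reached the filter in the vehicle group only, averaged 15.9 ± 2.75 and 2.65 ± 1.04 CPM. *IRAK2* rose from 23.1 ± 2.42 to 56.6 ± 7.04 CPM (1.29 ± 0.10). The receptor *TNFRSF1A* did not pass (-0.02 ± 0.06), and *IL1B* had at most 1 count a library.

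**Figure D4:**
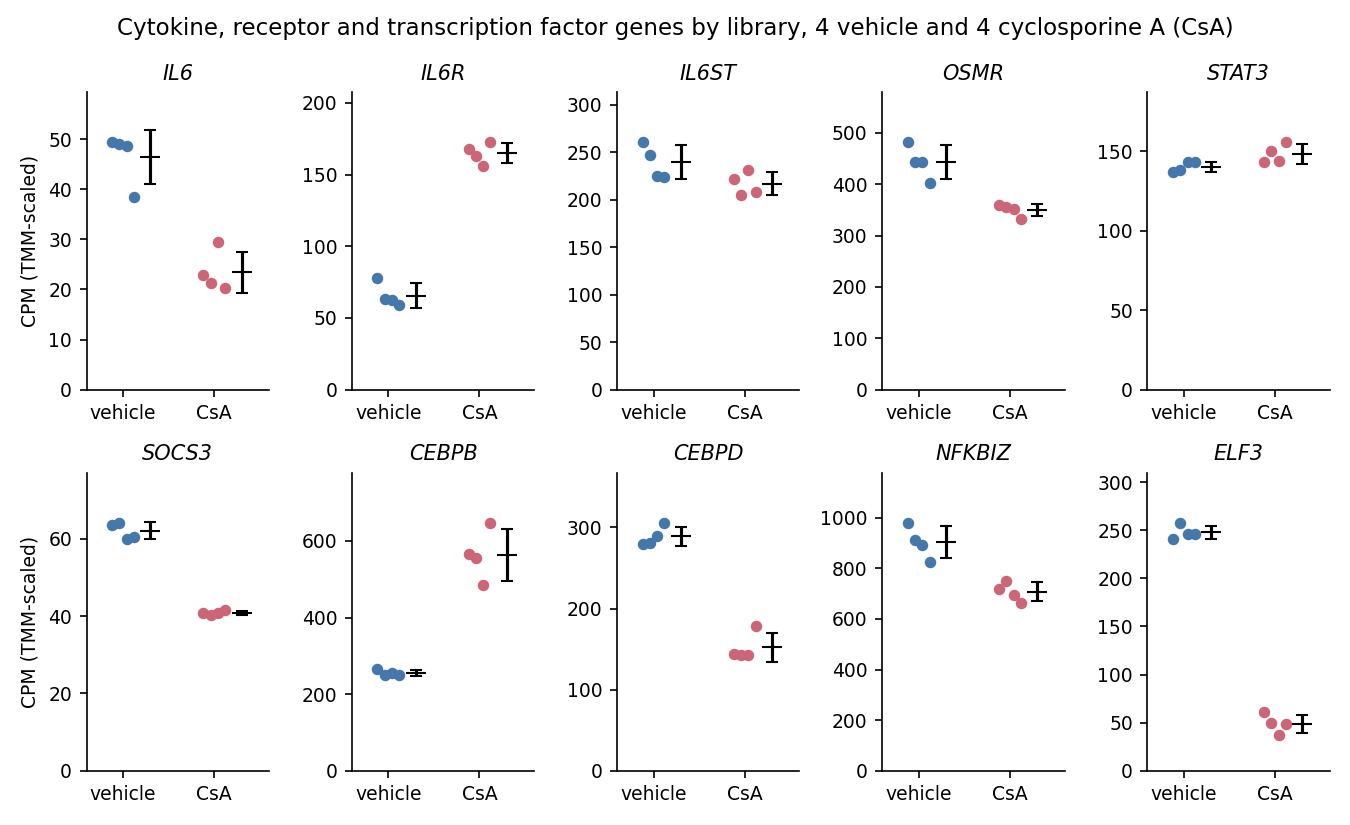
Level in CPM after TMM scaling (vertical axes, each from 0) of 10 cytokine, receptor and transcription factor genes in the 4 vehicle and 4 cyclosporine A libraries. Points are libraries and the bars beside them are the mean and SD. *CEBPD* and *ELF3* are lower and *IL6R* and *CEBPB* higher in every treated library, while *STAT3* lies at 137 to 156 CPM throughout.

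Transcription factors that act on acute phase genes were likewise split, with 10 of 24 tested genes higher, 8 lower and 6 not passing, and a median log2 fold change of 0.10. *CEBPB* measured 265, 249, 256 and 251 CPM in vehicle and rose to 565, 555, 484 and 648 CPM (1.14 ± 0.06, edgeR adjusted p = 2.62e-23). Its relative *CEBPD* measured 280, 281, 289 and 306 CPM and fell to 144, 143, 143 and 178 CPM (-0.93 ± 0.06, edgeR adjusted p = 2.67e-19). The 2 C/EBP genes moved in opposite directions, with no overlap between groups in either. *HNF4A*, a liver and tubule transcription factor, had 0 counts in every library.

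*NFKBIZ*, an NF-kB cofactor required for *LCN2* induction by interleukin-17, measured 981, 912, 893 and 827 CPM in vehicle and 720, 750, 696 and 662 CPM in cyclosporine A (-0.35 ± 0.06, edgeR adjusted p = 4.03e-07). The epithelial factor *ELF3* fell from 248 ± 6.99 to 48.7 ± 9.66 CPM (-2.34 ± 0.08), the smallest p-value of this list. *NFKBIA*, an NF-kB target and inhibitor, did not pass (0.12 ± 0.07, edgeR adjusted p = 0.130), although it did without cyclosporine A replicate 3 (adjusted p = 0.0202).

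Ceruloplasmin and lipocalin 2 belong to iron handling, where 8 of 19 tested genes rose, 7 fell and 4 did not pass, with a median log2 fold change of 0.02. The ferritin genes *FTL* and *FTH1* rose from 805 ± 44.5 to 2200 ± 71.5 CPM (1.45 ± 0.06) and from 288 ± 21.6 to 863 ± 96.8 CPM (1.58 ± 0.06). Heme oxygenase 1, from *HMOX1*, rose from 19.6 ± 1.18 to 79.6 ± 6.32 CPM (2.03 ± 0.09). The iron exporter *SLC40A1*, whose work ceruloplasmin aids by oxidising iron, measured 3.69, 3.68, 4.87 and 4.06 CPM in vehicle and 1.23, 0, 1.38 and 2.3 CPM in cyclosporine A, and it reached the filter in the vehicle group only.

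Receptors and partners of the 10 proteins were tested in 15 genes, of which 8 fell, 6 rose and 1 did not pass. *TGFBR2*, a receptor on the pathway that LRG1 modifies, fell from 176 ± 11.6 to 67.2 ± 4.53 CPM (-1.39 ± 0.07), and *ENG* and *ACVRL1*, the endoglin and ALK1 genes of the same pathway, fell by 0.93 and 1.11. *MMP9*, whose product binds lipocalin 2, rose from 47.2 ± 5.09 to 99.0 ± 8.14 CPM (1.06 ± 0.08). *SEC24A*, a coat protein of vesicles leaving the endoplasmic reticulum, rose from 35.0 ± 1.75 to 75.1 ± 4.31 CPM (1.10 ± 0.08). The lipocalin 2 receptor gene *SLC22A17* measured 8.23, 7.91, 4.87 and 8.35 CPM in vehicle and 5.96, 4.89, 4.6 and 5.88 CPM in cyclosporine A, groups that overlapped. Its edgeR adjusted p was 0.0319 (-0.47 ± 0.20) and ran from 0.00685 to 0.139 over all settings, and the call was lost with DESeq2 (0.139), with limma voom (0.0513) and without vehicle replicate 1, 2 or 4 or cyclosporine A replicate 2 or 3.

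Of the other serpins, relatives of *SERPINA1*, 9 of 11 with enough counts fell (81.8%, against 33.5% of all tested genes). Another 2 did not pass and 0 rose (against 33.3%), with a median log2 fold change of -1.09. Of these 11, 4 reached the filter in the vehicle group only, a way of passing that favours a fall, and most of those 4 were called lower. *SERPINF2*, the antiplasmin gene, measured 35.0, 30.5, 31.3 and 26.9 CPM in vehicle and 4.73, 5.86, 6.21 and 8.69 CPM in cyclosporine A (-2.31 ± 0.14, edgeR adjusted p = 2.79e-21). The collagen chaperone gene *SERPINH1* fell from 728 ± 45.0 to 340 ± 10.8 CPM (-1.10 ± 0.06). *SERPINB1* did not pass (0.01 ± 0.11).

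Proximal promoters, the 250 bases before a gene's start, were read from RefSeq (GRCh38.p14) to show the letters of 4 motifs bound by factors of the acute phase response, searched on both strands: GGNNTTNCC for NF-kB, TTCNNNGAA for STAT, TTGCNNAA for C/EBP and GTTAATNAT for HNF1. The table holds 7 promoters of 5 of the 10 genes (*CFB*, *LCN2*, *C1R*, *SERPINA1* and *LRG1*). Promoters are shown for *LRG1* (chr19:4540037-4540286, minus strand), whose mRNA was 15.3-fold lower over summed counts, for *CFB* (chr6:31945845-31946094, plus strand) and for *LCN2* (chr9:128149203-128149452, plus strand), whose mRNA was not called. Each is 5′ to 3′ on the gene's strand and ends at the base before the start, and capitals mark the motif letters.
LRG1: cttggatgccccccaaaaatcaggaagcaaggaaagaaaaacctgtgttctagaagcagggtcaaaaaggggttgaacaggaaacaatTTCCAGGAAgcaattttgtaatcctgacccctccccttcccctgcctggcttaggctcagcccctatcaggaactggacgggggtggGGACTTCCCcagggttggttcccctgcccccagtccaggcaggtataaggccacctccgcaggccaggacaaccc
CFB: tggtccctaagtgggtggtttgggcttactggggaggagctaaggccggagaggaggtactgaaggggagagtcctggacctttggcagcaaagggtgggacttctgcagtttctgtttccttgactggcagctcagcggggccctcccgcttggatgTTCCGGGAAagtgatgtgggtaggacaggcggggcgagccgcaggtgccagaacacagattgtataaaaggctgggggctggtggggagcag
LCN2: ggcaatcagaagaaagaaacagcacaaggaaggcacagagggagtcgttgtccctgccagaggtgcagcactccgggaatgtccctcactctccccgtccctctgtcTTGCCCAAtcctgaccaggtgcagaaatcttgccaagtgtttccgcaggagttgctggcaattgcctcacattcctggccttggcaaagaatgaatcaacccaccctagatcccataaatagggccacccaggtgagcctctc
*LRG1* held a STAT match beginning at -162 and an NF-kB match at -75, *CFB* a STAT match at -92 and *LCN2* a C/EBP match at -143. Of the 2 *C1R* promoters, 1 held a C/EBP match at -106 and the other a C/EBP match at -167 and a STAT match at -86. The 2 *SERPINA1* promoters held no exact match to these 4 letter patterns in this window. Of 35116 promoters of the same length, 15.0% held the NF-kB letters, 6.57% the STAT letters, 9.05% the C/EBP letters and 0.723% the HNF1 letters. A match is a description of the letters and not a measured site. The lack of a match likewise concerns these exact letters alone, and sites that differ from them were not searched.

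Argonaute clusters from PAR-CLIP were searched for these genes, with scores that are the authors' and whose unit is not given in the sources used here. None of the 9 clusters on the genes was annotated to a 3′ UTR, the class in which microRNA sites are usually sought, and such clusters were rare: 748 of 56985 in the vehicle list, 530 of 36812 in the cyclosporine A list and 196 of 19306 in the list for all Argonaute proteins. *SAA1*, *SAA2*, *C3* and *CFB* had 1 cluster each in the vehicle list, 4 genes of 10 against 52.5% of tested genes with a cluster. In the cyclosporine A list *C3* had 2 clusters and *CP* and *CFB* 1 each, 3 genes of 10 against 42.0%. In the list for all Argonaute proteins 1 cluster lay on *CP*, and 27.3% of tested genes had a cluster. Each AGO2 list pools 2 libraries, so differences between lists have no replicate check, and *LRG1*, *DEFB1*, *SERPINA1*, *C1R* and *LCN2* had no listed cluster.

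The *SAA1* and *SAA2* clusters are shown because they share most of their sequence, which leaves their assignment to either gene uncertain. Both are intronic in hg19, at chr11:18287992-18288040 on the plus strand and chr11:18269957-18270002 on the minus strand, and capitals mark the 45 bases they share.
SAA1: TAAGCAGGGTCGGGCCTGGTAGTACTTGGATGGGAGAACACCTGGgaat
SAA2: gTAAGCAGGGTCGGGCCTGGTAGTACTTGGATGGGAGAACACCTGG
A 20-base stretch of them recurred in 4 vehicle clusters, these 2 included, and in 3 cyclosporine A clusters on 3 chromosomes. An 18-base stretch of the *SAA1* cluster occurred in 17 vehicle clusters on 10 chromosomes, of which 3 were annotated as 5S rRNA repeats, and in 12 cyclosporine A clusters on 9 chromosomes, of which 2 were so annotated. The sequence thus recurs among clusters, and the origin of its reads was not tested.

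The *CFB* and *C3* clusters are shown because they recurred between the treatments, and capitals mark the shared bases. The *CFB* cluster was annotated at the gene's end (hg19 chr6:31919858-31919886 in vehicle and chr6:31919858-31919881 in cyclosporine A) on the minus strand, while *CFB* runs on the plus strand. The *C3* cluster was intronic on the plus strand (hg19 chr19:6698558-6698575 and chr19:6698560-6698582), while *C3* runs on the minus strand, so both recurring clusters were antisense to the gene they are listed under.
CFB, vehicle: gccccAAAAGGATCTGGAACACAGGTGTT
CFB, cyclosporine A: AAAAGGATCTGGAACACAGGTGTT
C3, vehicle: taAACCTGATGATCTAGC
C3, cyclosporine A: AACCTGATGATCTAGCtaggtgc
The *CFB* clusters shared 24 bases and ranked at the 87.0th and 88.5th percentile of score in their lists, and the *C3* clusters, sharing 16 bases, at the 4.61 and 37.7 percentile. RefSeq places *NELFE*, named *RDBP* in the count table, on the minus strand 3 bases from the end of *CFB*. Its mRNA averaged 65.8 ± 4.4 CPM in vehicle and 59.8 ± 5.25 CPM under treatment, a difference short of the threshold (-0.13 ± 0.08, edgeR adjusted p = 0.141).

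The 50 most abundant miRNAs were searched for seed matches in the 8 AGO2 clusters on these genes, and 47 of them had a mature sequence in RefSeq. A single match was found, for hsa-miR-30a-3p in the *CP* intron cluster of the cyclosporine A list (hg19 chr3:148906132-148906150, minus strand). Capitals mark the seed, bases 2 to 8 of the miRNA, and its complement in the cluster.
hsa-miR-30a-3p: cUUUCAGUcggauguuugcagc
CP, cyclosporine A: ggtgaACTGAAAtatttca
The same letters occurred in 0.37% of vehicle clusters and 0.426% of cyclosporine A clusters. A separate search for the complement of bases 2 to 7 followed by A found no match. hsa-miR-30a-3p measured 3080, 3140, 3180 and 2790 CPM in vehicle and 2400, 2390, 2740 and 2870 CPM in cyclosporine A. The groups overlapped, and the miRNA did not pass (-0.23 ± 0.11, edgeR adjusted p = 0.197), in a table where 53 of 470 tested miRNAs (11.3%) did.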

How the data were processed

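HK-2 polyadenylated RNA and small RNA (4 vehicle and 4 cyclosporine A libraries each) and AGO2 PAR-CLIP were analysed; groups and replicate numbers come from the sample labels. Raw, whole-number counts for each gene symbol and each mature miRNA were deposited by the authors. The submitters' processing notes name hg19 and the tools TopHat, Bowtie, HTSeq, DESeq2, cutadapt and CASAVA 1.8.2; for each its role and settings, and strand use in counting, were not given in the sources used here. A table of log2 fold changes and p-values was deposited too, and its log2 values are quoted as the authors'. The PAR-CLIP lists give a score per cluster, per the file headers, used only to rank within a list; lists pool the libraries of a treatment. Sequences of the list for all Argonaute proteins were not used, since their length equals the interval in few clusters.

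The quasi-likelihood test of edgeR 4.0.16 (R 4.3.3) was run on the counts after filterByExpr and TMM, with treatment as the sole term, with Benjamini-Hochberg adjustment over all 12855 mRNA or 470 miRNA features; a call is an adjusted p under 0.05. Fold changes are log2, cyclosporine A over vehicle, ± SE, and levels are mean ± SD in CPM. Total counts ran from 3965431 to 7041604 (mRNA) and from 6664231 to 9184278 (miRNA). Replicates differed by more than counting noise (chi-square per degree of freedom 1.28 or more in every mRNA pair). Alternatives were DESeq2 1.42.0, limma 3.58.1 voom, RLE and upper-quartile scaling, other filters, a replicate block and leaving out each library.

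The members and lists were chosen with earlier results of these data known. Named genes are the members, the 3 smallest p-values that passed in each list and its most abundant gene that did not, and a fixed set of regulators; *MASP2*, *COLEC10*, *CD46*, *CD59*, *LGALS3*, *ANG*, *DUOX1*, *TLR3*, *NOD1*, *TLR2*, *IRAK4*, *TRAF6*, *PIM3*, *SOCS1*, *ENG*, *ACVRL1*, *SAA4* and *RDBP* were added after their values were seen. A few genes that this rule names are not reported here, but they remain in the counts over genes and lists.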

Additional observations from a re-analysis of the deposited data

Results flagged for a closer look

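Across 120 groups of 4 libraries, formed from the named genes, 11 held a library whose distance from the nearest other exceeded Dixon's 95% critical value for the gap over the range. Chance alone flags about 5% of such groups, and no explanation was tested.

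Among the 10 genes, *SAA2* was high in cyclosporine A replicate 1 at 1.85 CPM (others 0.69 to 0.767), on 9 counts against 3. *LRG1* was low in vehicle replicate 4 at 37.9 CPM (others 44.9 to 45.3), and *CFB* was high in cyclosporine A replicate 3 at 14.3 CPM (others 8.44 to 8.84). *C3* was low in cyclosporine A replicate 4 at 1720 CPM (others 1810 to 1830), and *LCN2* was high in vehicle replicate 2 at 27.6 CPM (others 22.3 to 22.8).

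In vehicle replicate 4, *CLU* was low at 1010 CPM (others 1170 to 1200) and *IL6* was low at 38.4 CPM (others 48.7 to 49.5). In cyclosporine A replicate 4, *TIMP1* was low at 198 CPM (others 218 to 221), *IRAK1* was high at 523 CPM (others 457 to 460) and *CEBPD* was high at 178 CPM (others 143 to 144). *SLC22A17* was low in vehicle replicate 3 at 4.87 CPM (others 7.91 to 8.35).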

How the results depend on the processing

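The 10 genes were chosen on this contrast, so their values across settings are a description: each kept its sign in the 16 settings, and 8 were called in each, beside 33.5% lower and 33.3% higher calls among all tested genes. The log2 fold change ran from -7.00 to -6.40 for *DEFB1*, from -3.86 to -3.29 for *SAA1* and from -0.77 to -0.65 for *C3*. *SERPINA1* was at -1.88 with upper-quartile scaling, and *SAA2* ran from -4.80 to -4.14 when 1 library was left out. Acute phase genes that fell numbered 4 with DESeq2 and 4 without a filter on low counts. Antimicrobial genes that fell numbered 5 without that filter, and 0 rose with upper-quartile scaling. Sensors that rose numbered 1 with DESeq2, limma voom, upper-quartile scaling and the replicate block, and 1 to 3 with 1 library left out. Complement activation genes that rose numbered 1 to 2 with 1 library left out. Clusters at or above the median score numbered 3 of 4 in the vehicle list, 1 of 4 in the cyclosporine A list and 0 of 1 in the list for all Argonaute proteins. Seed matches numbered 0 under the other rule, the complement of bases 2 to 7 followed by A. More genes are tested without the filter and fewer samples enter when a library is left out; for the other settings the cause was not tested. Deviations of same-numbered libraries correlated at -0.084 to 0.033 for mRNA and at -0.06 to 0.338 for miRNA, not above 0.1 in every pair, so the numbers were not taken to pair them; with the replicate block 8 of the 10 genes were called. No named gene changed direction past the threshold. Depth limits *DEFB1*, *SAA1*, *SAA2* and *LRG1* under cyclosporine A, which rest on 6, 51, 18 and 49 counts over 4 libraries.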
